A study of Mus musculus with 10 samples.

Results

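Gap junctions, the cell projections that carry them and the adhesion proteins that hold follicle cells together were followed through 10 genes, chosen by symbol from a list of junction, projection and adhesion genes and all found among the 23234 gene symbols of the study. The RNA of mouse ovarian follicle cells was sequenced in 10 libraries of 5 groups. C57BL/6 mice gave cumulus cells, the granulosa cells around the oocyte, at 2 months of age (3 libraries) and at 10 months (3 libraries). The same strain gave mural granulosa cells, the lining of the follicle wall, at 2 months (2 libraries). The library protocol in the labels, which is the same text for every sample, mentions only mural cells and says that their donors had been given the gonadotropin eCG. Whole cumulus-oocyte complexes (COC), which hold the oocyte as well as its cumulus cells, were taken at 3 weeks of age after PMSG, another name for eCG, and gave 1 library from the DBA/2 strain and 1 from BDF1, a cross of C57BL/6 with DBA/2. The labels give 1 medium for all samples, which contains the phosphodiesterase inhibitor milrinone. The labels do not say whether the cumulus donors were primed or animals pooled. Comparisons of cumulus with mural cells therefore cannot be told apart from a possible difference in priming, and those with complexes also not from strain, age and the presence of the oocyte.

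The oocyte is fed by its neighbours. Granulosa cells extend thin filopodia, called transzonal projections, through the zona pellucida to the oocyte surface, and gap junctions at their tips pass small molecules such as cyclic GMP that keep the oocyte in meiotic arrest. In the mouse, Gja1 encodes the main connexin between granulosa cells and Gja4 the connexin that couples granulosa cells to the oocyte, and Gjc1 encodes a further connexin. Myo10 (a motor of filopodial tips), Fscn1 (fascin, which bundles actin) and Daam1 (a formin that elongates actin) are linked to the building of transzonal projections. Cdh1 and Cdh2 encode E-cadherin and N-cadherin, the calcium-dependent adhesion proteins of adherens junctions, Pvrl2 encodes nectin-2, an immunoglobulin-like protein of the same junctions, and F11r encodes junctional adhesion molecule A, found at tight junctions.

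Levels are in FPKM, fragment numbers corrected for transcript length and library size, which allows comparison between genes. Each library summed to 470377 to 603460 FPKM, and its read depth is unknown. Nothing in the labels says that replicates were separate animals, and the spread behind each p-value may therefore be technical. The 9 listed granulosa markers, all above 0 in every library, summed to 4341 to 12632 FPKM. In each library this was the largest sum of the marker lists. Oocyte markers were uneven, with a summed FPKM of 222, 5.47 and 1163 in cumulus replicates 1, 2 and 3 at 2 months, 170 to 370 at 10 months, 151 and 21.4 in the mural libraries, and 3036 and 2894 in the BDF1 and DBA/2 complexes. Mural markers summed to 65.4 to 90.4 FPKM in cumulus cells at 2 months, to 89.0, 381 and 997 in replicates 1, 2 and 3 at 10 months, and to 1939 and 3659 in mural cells. The third cumulus library of 10 months was set apart by these markers and by surface epithelium markers (116 FPKM, against 59.0 and 51.9 in replicates 1 and 2). It was also set apart by erythroid markers (136 FPKM, against 23.2 and 21.9) and endothelial markers (21.3 FPKM, against 3.05 and 5.62). The libraries are bulk samples, in which fewer cells of a type and less RNA per cell cannot be told apart.

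Promoter sequences are shown for Gja1, F11r and Fscn1, which changed between mural and cumulus cells and hold a motif of a factor class that acts in gonadotropin-stimulated granulosa cells. The motifs searched on both strands were TGANTCA, bound by AP-1 factors such as FOS and JUN, and TGACGTCA, the cyclic AMP response element. No match of one motif overlapped a match of the other in these genes. The capitals mark the matches in the 250 bases before the transcript start, 5′ to 3′ on the plus strand, from RefSeq on GRCm38.p6.
Gja1, chr10:56377050-56377299: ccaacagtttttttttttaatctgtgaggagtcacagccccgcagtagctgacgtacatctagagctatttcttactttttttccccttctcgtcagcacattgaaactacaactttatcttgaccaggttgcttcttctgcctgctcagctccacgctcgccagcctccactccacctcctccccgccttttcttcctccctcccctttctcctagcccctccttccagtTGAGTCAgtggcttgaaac
F11r, chr1:171437311-171437560: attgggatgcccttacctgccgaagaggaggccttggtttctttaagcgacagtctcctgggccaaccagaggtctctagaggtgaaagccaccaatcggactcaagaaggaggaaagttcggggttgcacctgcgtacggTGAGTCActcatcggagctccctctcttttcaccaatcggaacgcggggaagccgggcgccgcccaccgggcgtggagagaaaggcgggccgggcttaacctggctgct
Fscn1, chr5:142960105-142960354: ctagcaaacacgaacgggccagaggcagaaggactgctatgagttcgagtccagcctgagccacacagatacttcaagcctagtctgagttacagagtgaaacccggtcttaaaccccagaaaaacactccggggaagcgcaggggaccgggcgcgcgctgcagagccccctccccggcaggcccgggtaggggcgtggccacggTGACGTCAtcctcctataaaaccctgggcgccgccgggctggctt
Of the 10 genes, 7 had a promoter in the RefSeq table, with 9 windows in all. TGANTCA was found in 2 of them, at position -19 from the transcript start of Gja1 and -109 from that of F11r, and in 6.75% of 32851 mouse promoter windows of the same length. TGACGTCA was found in 1, at -45 in Fscn1, and in 1.55% of all windows. Myo10 and Pvrl2, which also changed between mural and cumulus cells, held neither motif in their windows, and nor did Gja4 and Daam1. A match describes the letters in this window and not a bound site.

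Gja1 was by far the most abundant of the 20 connexin genes measured. It stood at 1425, 1528 and 1295 FPKM in cumulus cells at 2 months, at 1276, 1221 and 1114 at 10 months, at 2466 and 2209 in mural cells, and at 1235 and 1525 in BDF1 and DBA/2 complexes. Both mural libraries were above every other library, and the remaining groups lay within 1114 to 1528 FPKM. In cumulus and mural libraries Gja1 made up 96.6 to 99.6% of the summed connexin FPKM, and in BDF1 and DBA/2 complexes 88.6 and 90.6%. Of the 20 connexin genes, 12 stayed under 1 FPKM in every library. The order of group means was mural cells (2337 ± 182 FPKM, SD, n = 2), cumulus cells at 2 months (1416 ± 117, n = 3) and cumulus cells at 10 months (1204 ± 82.1, n = 3), with both complexes overlapping the cumulus range.

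Gja4 varied with the oocyte marker Gdf9. It stood at 9.03, 1.02 and 36.9 FPKM in cumulus cells at 2 months, at 11.3, 6.14 and 12.5 at 10 months, at 5.78 and 1.60 in mural cells, and at 127 and 123 in BDF1 and DBA/2 complexes. The complexes were above every library of isolated cells, and the 3 cumulus libraries of 2 months spanned the values of all other isolated cells. The oocyte growth factor gene Gdf9 had 54.4, 0.647 and 261 FPKM in these 3 libraries, against 951 and 894 FPKM in the complexes. The ratio of Gja4 to Gdf9 was 0.134 to 0.189 in the 8 libraries with a Gdf9 of at least 30 FPKM. The 0.189 was that of mural replicate 1, and the complexes and cumulus libraries among them lay at 0.134 to 0.166. This ratio was 1.58 in cumulus replicate 2 at 2 months and 0.520 in mural replicate 2, in both of which Gja4 was under 2 FPKM. The ratio of Gja1 to Gja4 went from 1497 in cumulus replicate 2 at 2 months to 9.72 in BDF1 complexes.

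Gjc1 was low in isolated cells and higher in complexes. Its FPKM was 1.66, 2.22 and 2.09 in cumulus cells at 2 months, 1.61, 0.951 and 1.37 at 10 months, 2.16 and 3.94 in mural cells, and 17.1 and 13.8 in BDF1 and DBA/2 complexes. Unlike Gja4, it did not stand out in cumulus replicate 3 at 2 months, the library with the most oocyte RNA among isolated cells. Its ratio to Gdf9 was 0.00800 in that library, against 0.0180 and 0.0154 in the BDF1 and DBA/2 complexes. The ratio was 0.0306 in cumulus replicate 1 at 2 months, 0.0162 to 0.0228 at 10 months and 0.0708 in mural replicate 1.

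**Figure D1:**
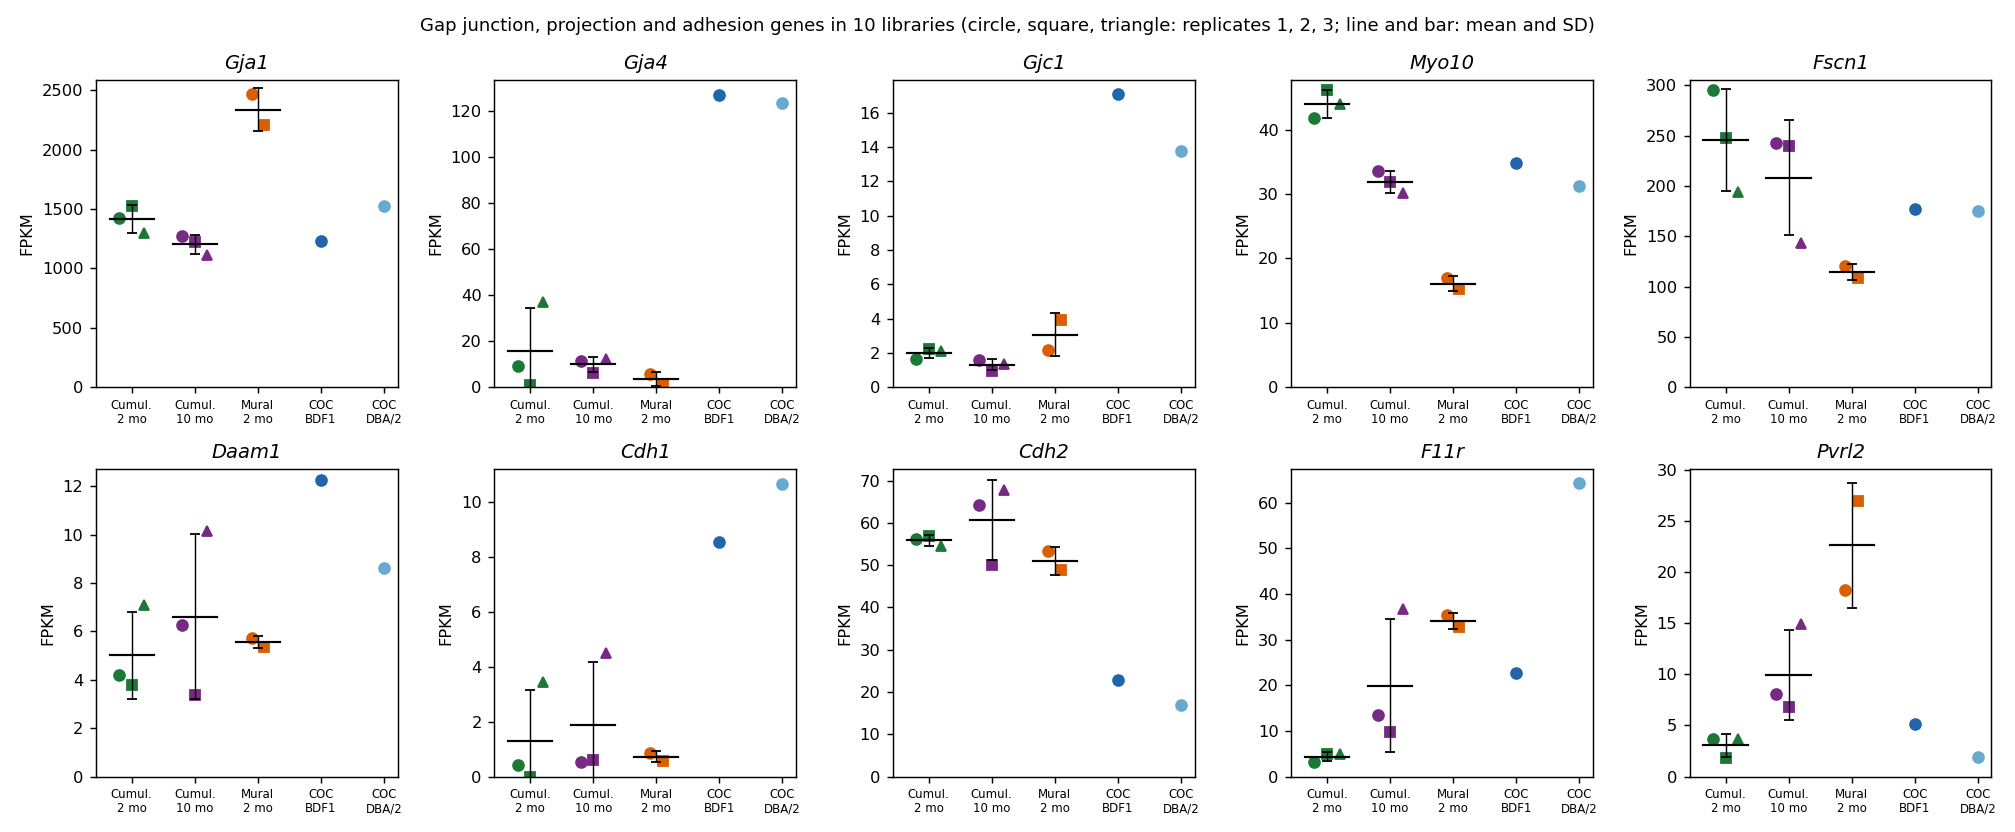
FPKM of the 10 genes in each library (points, with circle, square and triangle for replicates 1, 2 and 3), by group, with the mean (line) and SD (bar, cut at 0) where a group has more than 1 library. Gja1 is highest in the 2 mural libraries, Gja4, Gjc1 and Cdh1 are highest in the 2 complexes, and Myo10 and Fscn1 are lowest in the mural libraries.

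Myo10 separated the 3 C57BL/6 groups without overlap. Among all genes tested, mural and 2-month cumulus libraries did not overlap in 57.6%, and the cumulus ages in 17.8%. The share for all 3 groups at once was not computed. Myo10 stood at 41.8, 46.1 and 44.0 FPKM in cumulus cells at 2 months, at 33.6, 31.8 and 30.2 at 10 months, at 17.0 and 15.2 in mural cells, and at 34.8 and 31.3 in BDF1 and DBA/2 complexes. The complexes lay near the 10-month cumulus libraries and below all 2-month cumulus libraries. Fscn1 was several times more abundant than Myo10, at 295, 248 and 194 FPKM in cumulus cells at 2 months, 243, 239.6 and 143 at 10 months, 120.0 and 109 in mural cells and 177 and 176 in the complexes. Both mural libraries were the lowest of all, and the cumulus groups overlapped. Daam1 stood at 4.18, 3.77 and 7.07 FPKM at 2 months, 6.28, 3.37 and 10.2 at 10 months, 5.74 and 5.37 in mural cells and 12.3 and 8.63 in BDF1 and DBA/2 complexes. In both cumulus groups replicate 3 had the highest Daam1, and the C57BL/6 groups overlapped.

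The RNA of Cdh2 was above that of Cdh1 in every library. Cdh2 stood at 56.1, 56.97 and 54.5 FPKM in cumulus cells at 2 months, at 64.2, 50.1 and 67.8 at 10 months and at 53.4 and 48.8 in mural cells. In BDF1 and DBA/2 complexes it stood at 22.8 and 16.9 FPKM, below every library of isolated cells. Cdh1 had the opposite order, at 8.54 and 10.6 FPKM in BDF1 and DBA/2 complexes. In isolated cells it was 0.422, 0 and 3.44 FPKM at 2 months, 0.539, 0.605 and 4.51 at 10 months, and 0.875 and 0.584 in mural cells. The higher values at 2 and 10 months were both in replicate 3, the first of which had the highest oocyte markers of the isolated cells and the second the highest surface epithelium markers, and their part in these values was not tested. The ratio of Cdh1 to Gdf9 was 0.0132 in the former, 0.00897 and 0.0119 in the complexes, and 0.0533 in the latter. The ratio of Cdh2 to Cdh1 was 2.67 and 1.58 in BDF1 and DBA/2 complexes and at least 15.0 in each isolated-cell library in which Cdh1 was above 0.

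F11r and Pvrl2 were low in young cumulus cells. F11r stood at 3.20, 4.97 and 4.99 FPKM in cumulus cells at 2 months, at 13.4, 9.74 and 36.6 at 10 months, at 35.4 and 32.8 in mural cells, and at 22.6 and 64.3 in BDF1 and DBA/2 complexes. The 2-month cumulus libraries were the lowest, and 10-month replicate 3 was above both mural libraries. Pvrl2 stood at 3.71, 1.80 and 3.63 FPKM at 2 months, at 8.05, 6.79 and 14.9 at 10 months and at 18.3 and 26.9 in mural cells, with no overlap between the 3 groups. The shares of all genes given beside Myo10 apply here too. In BDF1 and DBA/2 complexes it stood at 5.16 and 1.88 FPKM, below all 10-month and mural libraries.

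**Figure D2:**
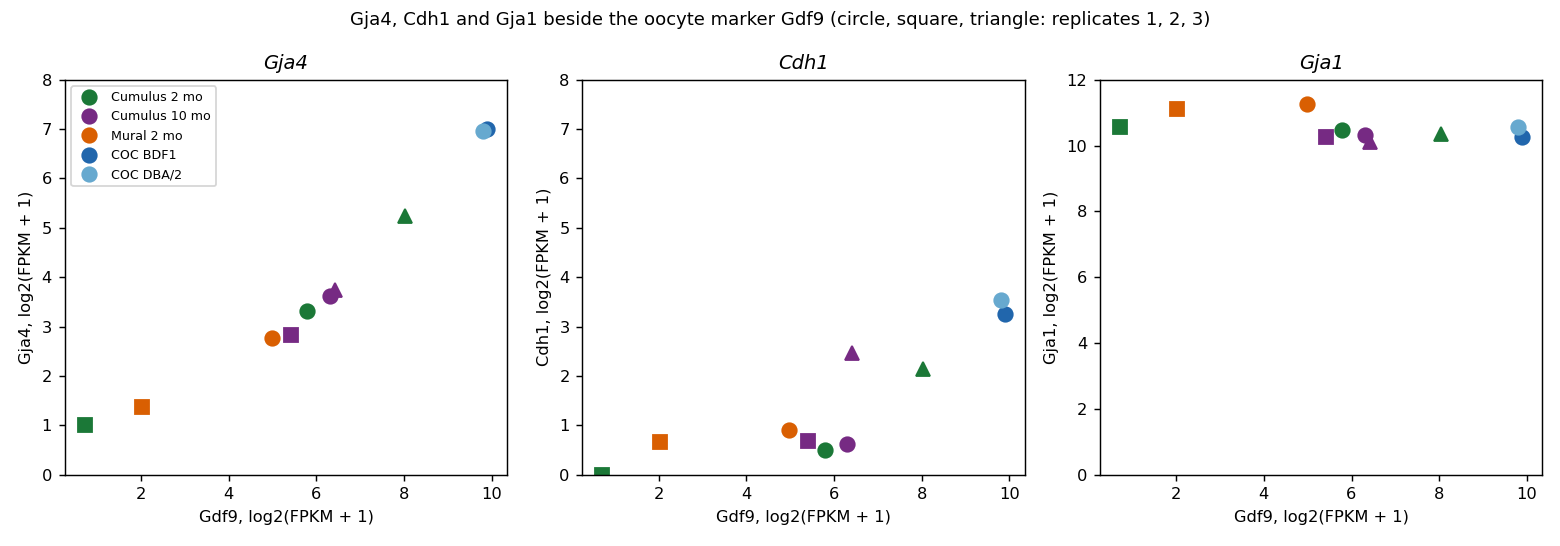
Level of Gja4, Cdh1 and Gja1 (vertical axes, log2 of FPKM + 1) against that of the oocyte marker Gdf9 (horizontal axes, same scale) in 10 libraries. Gja4 is higher in libraries with more Gdf9, Cdh1 is highest in the 2 complexes and raised in replicate 3 of both cumulus groups, and Gja1 is nearly level apart from the 2 mural libraries.

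The genes whose pattern over the 10 libraries was most like that of Gja4 were Oas1h (Pearson r = 0.998), Kpna7 (r = 0.998) and Mos (r = 0.998), the last a kinase of oocyte meiosis. The correlations were computed on log2(FPKM + 1) over 8612 other genes averaging 5 FPKM or more (8613 for Cdh1), across libraries that share their groups and oocyte content, and are descriptions. Mos stood at 105 and 133 FPKM in BDF1 and DBA/2 complexes and at 4.92, 0 and 26.0 in cumulus cells at 2 months. For Cdh1 the closest were Fnbp1l (r = 0.978), Jak2 (r = 0.977) and Stard13 (r = 0.973). Jak2, a kinase of cytokine receptors, stood at 14.1 and 15.8 FPKM in replicate 3 of the 2-month and 10-month cumulus cells, against 5.36 to 8.78 in the other cumulus libraries. For Gja1 they were Ctso (r = 0.962), Ksr1 (r = 0.951) and Grtp1 (r = 0.945). Ctso, a lysosomal protease, stood at 13.4 and 12.1 FPKM in mural cells and 6.35 to 9.27 in the other libraries.

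The first comparison set mural against cumulus cells at 2 months, both from C57BL/6 mice. Gja1, F11r and Pvrl2 were higher and Myo10 and Fscn1 lower in mural cells, and the other 5 genes did not pass the test. Gja1 was 1.65 times the cumulus mean (log2 fold change of FPKM + 1 of 0.72 ± 0.18 SE, adjusted p = 0.0262, limma). F11r had a mean of 34.1 ± 1.82 FPKM in mural and 4.39 ± 1.03 in cumulus cells (log2 fold change 2.72 ± 0.47 SE, adjusted p = 0.00981, limma). Pvrl2 had a mean of 22.6 ± 6.12 against 3.04 ± 1.08 FPKM (log2 fold change 2.56 ± 0.37 SE, adjusted p = 0.00616, limma). Myo10 had a mean of 16.1 ± 1.22 against 44.0 ± 2.19 FPKM (log2 fold change -1.40 ± 0.12 SE, adjusted p = 0.00199, limma), the smallest p of the 10 genes. Fscn1 had a mean of 114 ± 8.11 against 246 ± 50.4 FPKM (log2 fold change -1.08 ± 0.27 SE, adjusted p = 0.0300, limma). All means are over 2 mural and 3 cumulus libraries with their SD.

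Thus 3 of the 10 genes passed as higher and 2 as lower, where 20.9% of the 12412 genes tested passed, 9.69% as higher and 11.2% as lower. Mural cells were the higher group in 46.3% of the genes that passed, and in 64.0% after scaling all libraries to 1 summed FPKM, a scaling that took the median over all genes from a log2 fold change of -0.08 to 0.11. The calls and directions of these 5 genes held under that rescaling. Gja4 had a log2 fold change of -1.13 with a 95% interval from -3.61 to 1.35 and Cdh1 one of -0.10 (-1.84 to 1.64), intervals that take in differences of more than 2-fold in either direction. The interval was narrower for Daam1 (0.17, from -0.74 to 1.07), Gjc1 (0.41, from -0.20 to 1.02) and Cdh2 (-0.13, from -0.49 to 0.23). The direction of Cdh2 turned under that rescaling and under quantile normalization, and those of Cdh1 and Gja4 under other settings. Both mural libraries lay below all 3 cumulus libraries in Cdh2, and in Myo10 and Fscn1, as in 32% of all genes tested, and above them in Gja1, F11r and Pvrl2, as in 25.6%. Over both directions, groups did not overlap in 57.6% of all genes.

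The calls rested on few libraries. Myo10 passed under all 19 alternatives tried, with adjusted p from 1.17e-04 to 0.0332. Pvrl2 did not pass without mural replicate 2 (adjusted p = 0.0715), and F11r without mural replicate 1 (0.0641) or 2 (0.0849). Fscn1 was lost without mural replicate 1 (0.118) or 2 (0.178) and without cumulus replicate 1 (0.0822) or 2 (0.0837) at 2 months. Gja1 was lost without any of the 3 cumulus libraries of 2 months (0.0739 to 0.0799), without mural replicate 1 (0.166) or 2 (0.129), without cumulus replicate 1 at 10 months (0.0511), with no filter on low values (0.127) and with the oocyte markers as a covariate (0.0550). In the settings that ended these calls the log2 fold change was 0.64 to 0.80 for Gja1, -1.15 to -0.94 for Fscn1, 2.67 and 2.77 for F11r and 2.29 for Pvrl2. The whole table was as dependent on single libraries: 2599 genes passed, but 99 when mural replicate 2 was left out and 800 when mural replicate 1 was. Leaving out the 2-month cumulus replicates 1 and 2 in turn gave 1698 and 1164 genes.

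Endothelial, theca and stroma, immune and erythroid marker sums were higher in both mural libraries than in every 2-month cumulus library. Those of surface epithelium markers overlapped. Endothelial markers, of which all 9 were above 0 in both mural libraries, summed to 22.8 and 62.0 FPKM there and to 0.743 to 3.86 FPKM in the 2-month cumulus libraries, where 5 to 7 were above 0 and Emcn was at 0. Theca and stroma markers summed to 112 and 183 FPKM in mural and 9.33 to 10.9 FPKM in cumulus cells, with 11 of 11 above 0 in mural cells and 9 or 10 in cumulus cells. Surface epithelium markers summed to 52.7 and 33.7 FPKM against 26.4 to 35.2 FPKM. Of the 8 measured, 8 were above 0 in mural cells and 3 or 5 in cumulus cells. The keratin Krt8 was lower in mural cells (log2 fold change -0.79) and Krt18 higher (0.46). Neither passed (adjusted p = 0.0567 and 0.510, limma), and the other measured ones had positive log2 fold changes. Immune markers summed to 19.6 and 42.4 FPKM against 3.62 to 7.39 FPKM, with 10 of 10 above 0 in mural cells and 5 to 9 in cumulus cells. Erythroid markers summed to 141 and 82.5 FPKM against 13.3 to 21.4 FPKM. Of these, Alas2 was lower in mural cells (log2 fold change -2.57, adjusted p = 0.00577, limma) and Hba-a1 higher (4.72, adjusted p = 0.0303, limma). The other tested erythroid markers had positive log2 fold changes. F11r and Pvrl2 are known from epithelial and endothelial cells as well, and the part of these cells in their difference was not tested.

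**Figure D3:**
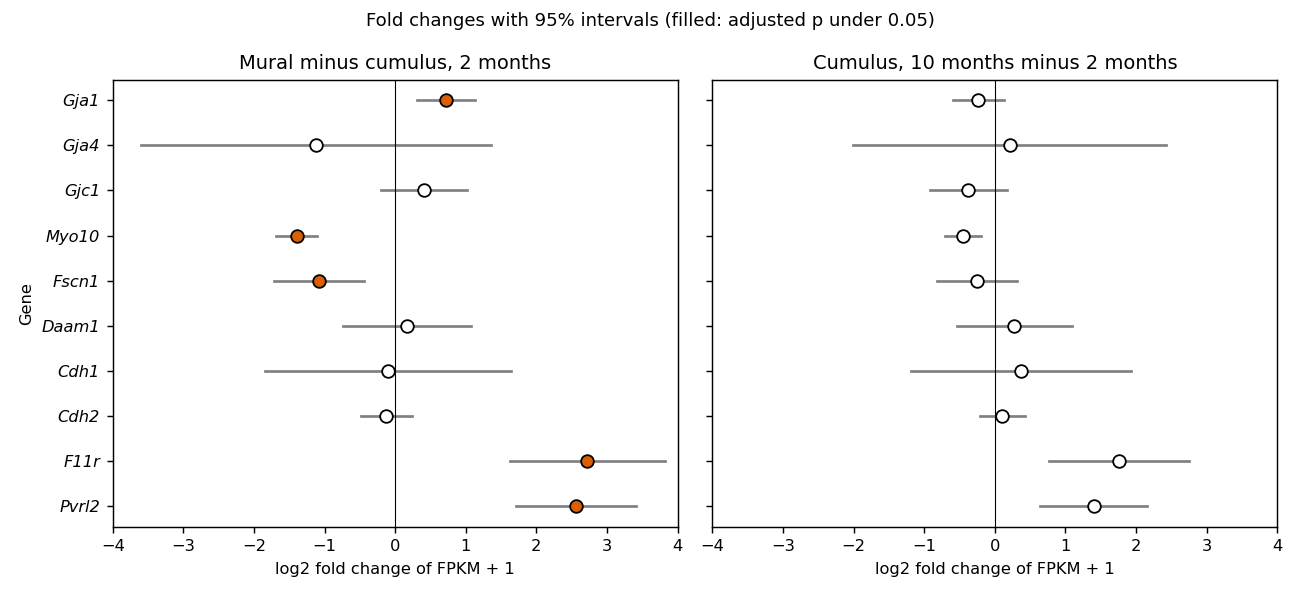
Log2 fold change of FPKM + 1 (horizontal axis) of the 10 genes for mural minus cumulus cells at 2 months and for cumulus cells at 10 minus 2 months, with 95% intervals (bars) and filled points where the adjusted p was under 0.05. In the first comparison 5 genes are filled and in the second 0.

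Other genes of the same machinery were taken from 5 lists, whose members beyond the 10 genes are counted here. Of 23 tested genes of filopodia and actin assembly, 3 were higher and 4 lower in mural cells, with a median log2 fold change of 0.11 against -0.08 for all genes. These counts, and those of the lists that follow, stand beside the 9.69% of all tested genes that passed as higher and the 11.2% that passed as lower, and nothing is read from them about a list. Cobl, an actin nucleator, had a mean of 2.57 ± 0.0106 FPKM in mural and 14.4 ± 0.859 in cumulus cells (log2 fold change -2.11, adjusted p = 0.00182, limma). Daam2, a relative of Daam1, stood at 6.69 ± 0.333 against 13.6 ± 1.41 FPKM and the formin Diap3 at 7.71 ± 0.315 against 13.8 ± 1.502 FPKM, both lower. Fmnl2, another formin, was higher, at 25.2 ± 4.88 against 7.34 ± 1.29 FPKM.

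Of 8 tested cadherins and catenins, 3 were higher and 0 lower in mural cells, with a median log2 fold change of 0.69. They were Jup (plakoglobin, 6.54 ± 0.871 against 1.44 ± 0.605 FPKM), Ctnna1 (alpha-catenin, 80.9 ± 10.9 against 50.8 ± 0.810 FPKM) and Cdh5, the cadherin of endothelial cells (8.67 ± 4.62 against 1.83 ± 0.463 FPKM), which stands beside the endothelial markers above. Beta-catenin (Ctnnb1) had a log2 fold change of 0.24 and did not pass (adjusted p = 0.276, limma). Among 6 tested nectins and nectin-like genes, Pvrl1 (nectin-1) was lower, at 11.7 ± 4.17 against 46.8 ± 12.3 FPKM (adjusted p = 0.00682, limma), the direction opposite to that of Pvrl2. Cadm4 was higher at a low level (2.75 ± 1.46 against 0.162 ± 0.214 FPKM). Of 14 tested tight junction and polarity genes, 3 were higher and 1 lower. Jam3, a relative of F11r, stood at 52.1 ± 1.17 against 22.7 ± 3.12 FPKM, and the claudins Cldn3 (3.88 ± 0.568 against 0.0621 ± 0.108) and Cldn5 (4.78 ± 3.83 against 0.0876 ± 0.152) were near 0 in cumulus cells at 2 months. With 2-month cumulus means this low, Cadm4, Cldn3 and Cldn5 met the filter of 1 FPKM only through other libraries. They could hardly have come out lower, although they count among the genes higher in mural cells. Pard6g, a polarity protein, was lower (4.13 ± 0.523 against 6.58 ± 0.713 FPKM). Of 3 tested connexins and pannexins, Panx1, which forms single-membrane channels, was lower (10.7 ± 1.64 against 29.1 ± 3.63 FPKM). Over the 5 lists 10 genes passed as higher and 7 as lower, and without mural replicate 2 these counts were 0 and 1. Without mural replicate 1 they were 6 and 3, without cumulus replicate 2 at 2 months 6 and 4, and among genes averaging 5 FPKM or more they were 4 and 5.

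**Figure D4:**
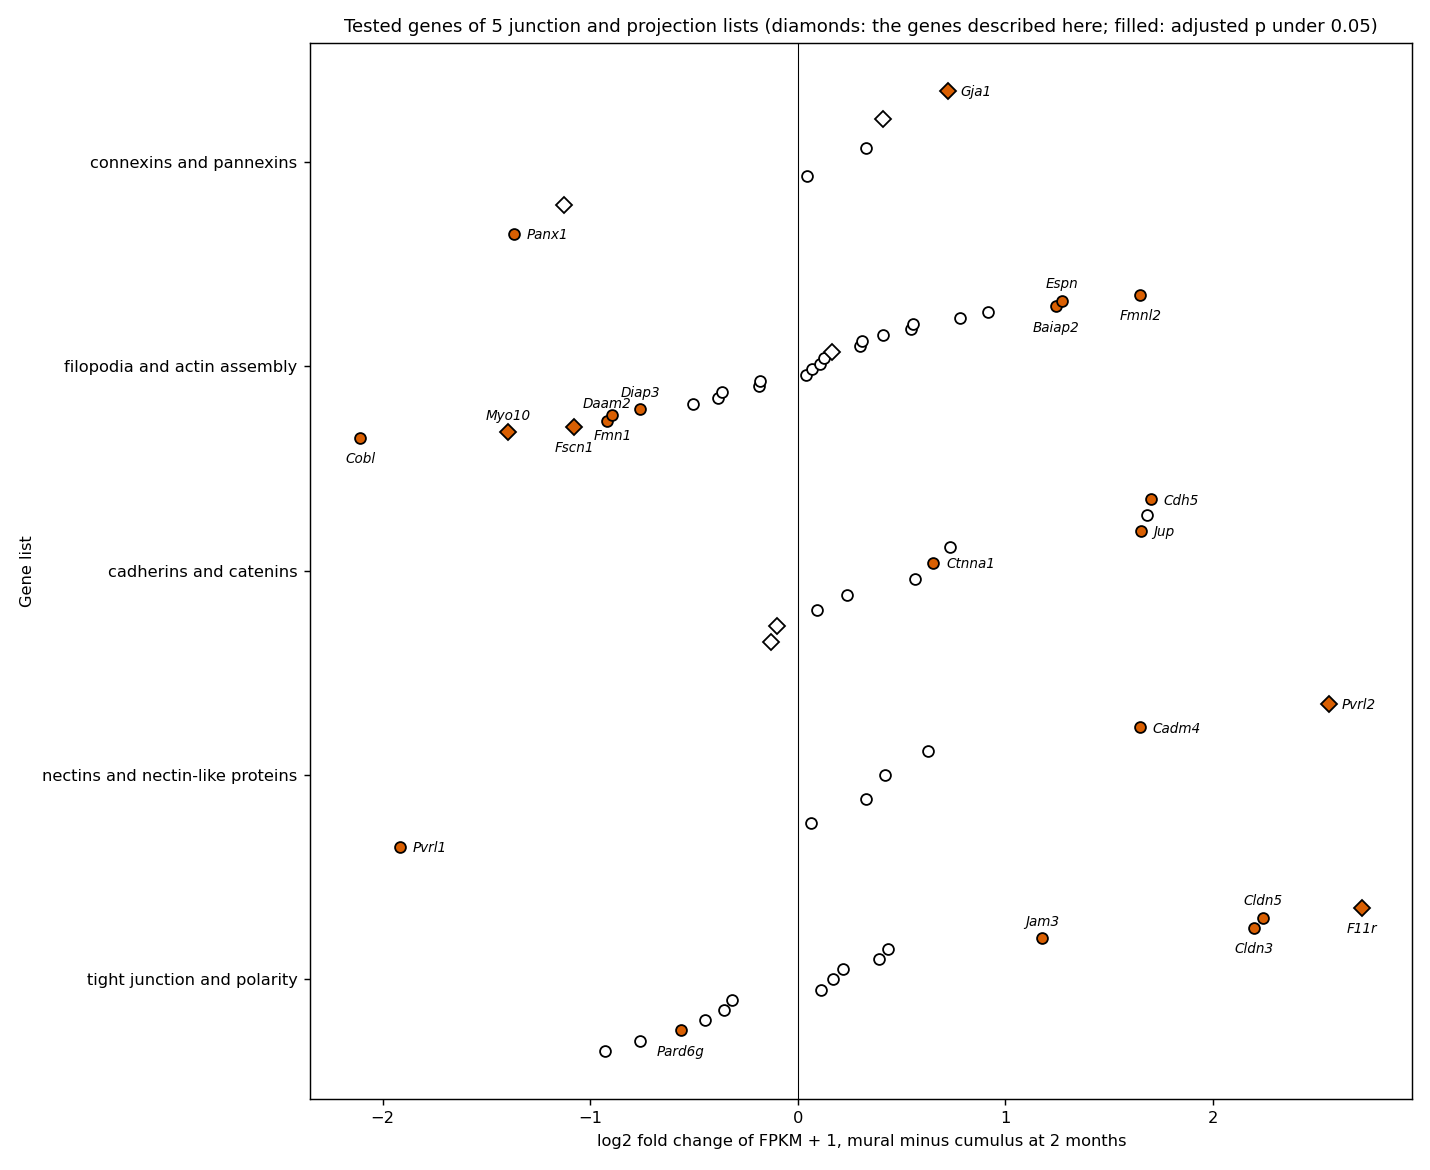
Log2 fold change of FPKM + 1 for mural minus cumulus cells at 2 months (horizontal axis) of every tested gene of 5 lists (rows), with diamonds for the 10 genes described here and filled, named points where the adjusted p was under 0.05. The projection list has filled points on both sides of 0, and the 3 filled cadherin and catenin genes are all on the mural side.

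The second comparison set C57BL/6 cumulus cells of 10 months against those of 2 months. None of the 10 genes passed: 0 of 12412 genes passed with limma, 1727 (13.9%; 7.73% higher and 6.19% lower) reached an unadjusted p under 0.05, and 3 of the 10 genes were among them. F11r had a mean of 19.9 ± 14.6 FPKM at 10 months and 4.39 ± 1.03 at 2 months (log2 fold change 1.76, 95% interval 0.77 to 2.74, adjusted p = 0.213, limma). Pvrl2 had a mean of 9.92 ± 4.37 against 3.04 ± 1.08 FPKM (log2 fold change 1.40, interval 0.64 to 2.16, adjusted p = 0.212, limma). Myo10 had a mean of 31.9 ± 1.69 against 44.0 ± 2.19 FPKM (log2 fold change -0.45, interval -0.71 to -0.20, adjusted p = 0.213, limma). In 5 of the 10 genes the ages did not overlap, with F11r and Pvrl2 above and Gja1, Gjc1 and Myo10 below the 2-month libraries, where 17.8% of all genes did not overlap, 8.93% above and 8.88% below. Means are of 3 libraries each, with their SD. Without 10-month replicate 2 the test passed 245 genes, and 0 of these were among the 10.

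The highest F11r and Pvrl2 of the 10-month libraries, 36.6 and 14.9 FPKM, were in replicate 3. Mural markers summed to 89.0, 381 and 997 FPKM in 10-month replicates 1, 2 and 3, against 65.4 to 90.4 FPKM at 2 months. Their median log2(FPKM + 1) was 2.95, 4.38 and 5.79, against 2.48 to 2.92. F11r stood at 13.4, 9.74 and 36.6 and Pvrl2 at 8.05, 6.79 and 14.9 FPKM in these replicates, all above the 2-month libraries. Immune markers summed to 20.3 to 54.4 FPKM at 10 months and 3.62 to 7.39 FPKM at 2 months. Theca and stroma markers summed to 27.4 to 58.3 against 9.33 to 10.9 FPKM, and surface epithelium markers to 51.9 to 116 against 26.4 to 35.2 FPKM. Endothelial markers summed to 3.05, 5.62 and 21.3 FPKM in 10-month replicates 1, 2 and 3, against 0.743 to 3.86 FPKM at 2 months. In 10-month replicate 1 all 10 immune markers and 4 of 8 surface epithelium markers were above 0. The part of these cell types in the F11r and Pvrl2 values was not tested. Gja1 had a log2 fold change of -0.23 (interval -0.60 to 0.13), Fscn1 of -0.26 (-0.82 to 0.31), Gjc1 of -0.38 (-0.92 to 0.17), Cdh2 of 0.11 (-0.22 to 0.43), Daam1 of 0.28 (-0.53 to 1.09), Cdh1 of 0.37 (-1.18 to 1.92) and Gja4 of 0.21 (-2.01 to 2.43). Both comparisons use the 2-month cumulus libraries, so their fold changes are not independent. The mural means of F11r (34.1 FPKM), Pvrl2 (22.6) and Myo10 (16.1) lay beyond the 10-month means in the same direction from the 2-month means, and that of Gja1 (2337) on the other side. In the 5 lists 0 genes passed for age, and 5 did, all higher, without 10-month replicate 2.

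Complexes and cumulus cells of 2 months were compared without a test, since each strain has 1 library. A difference was counted at a fold of at least 2 on the scale of FPKM + 1. In BDF1 complexes 5 of the 10 genes were higher (Gja4, Gjc1, Daam1, Cdh1 and F11r) and 1 was lower (Cdh2), where 12.4% of 12713 genes were higher and 3.37% lower. In DBA/2 complexes 4 were higher, the same without Daam1, and Cdh2 was lower, where 14.2% of genes were higher and 5.5% lower. After quantile normalization or centring on the median, 4 genes were higher in BDF1 complexes too. In FPKM, Gja4 was 8.12 and 7.88 times the cumulus mean in BDF1 and DBA/2 complexes, Gjc1 8.60 and 6.92 times, Cdh1 6.62 and 8.26 times and F11r 5.15 and 14.6 times. The Gja4 and Cdh1 means rest on cumulus replicate 3: without it Gja4 was 25.3 and 24.5 times and Cdh1 40.5 and 50.4 times the mean of the other 2 libraries. Without cumulus replicate 2 they were 5.53 and 5.37 times for Gja4 and 4.42 and 5.51 times for Cdh1. Cdh2 was 2.45-fold and 3.31-fold lower in them. Gja4, Gjc1 and Cdh1 were above, and Cdh2 below, all 6 cumulus libraries in both complexes, as were 27.8% and 10.9% of all genes. F11r in BDF1 complexes lay within the range of 10-month cumulus cells. Gja1 had a log2 difference of -0.19 and 0.11, Myo10 of -0.33 and -0.48 and Fscn1 of -0.45 and -0.46 in BDF1 and DBA/2 complexes. Daam1 in DBA/2 complexes lay within the range of 10-month cumulus cells and in BDF1 complexes above it, and Pvrl2 differed by a log2 of 0.65 and -0.45.

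Between the strains, F11r was 2.77-fold lower and Pvrl2 2.14-fold higher in BDF1 than in DBA/2 complexes on the scale of FPKM + 1, and the other 8 genes differed by less than 2-fold. The shares of all genes past 2-fold were 3.38% higher and 2.78% lower in BDF1. In BDF1 and DBA/2 complexes, surface epithelium markers summed to 16.8 and 17.7 FPKM, endothelial markers to 7.33 and 8.50, theca and stroma markers to 13.7 and 13.1, immune markers to 7.57 and 10.8, mural markers to 53.4 and 80.6 and erythroid markers to 17.5 and 7.80. Single markers were further apart, among them Amh (437 and 44.6 FPKM) and the keratin Krt18 (4.01 and 0.681 FPKM), and their part in the strain differences was not tested. With 1 library each, these differences have no replicate check. From the 5 lists, and chosen after their values were seen, the formins Fmnl3 (53.4 and 45.5 FPKM in BDF1 and DBA/2 complexes) and Fmn2, a formin of oocyte spindle positioning (15.6 and 15.0 FPKM), were higher in complexes. Like Gja4, both were also highest among isolated cells in cumulus replicate 3 at 2 months, at 19.4 and 6.51 FPKM. Cldn4 (7.94 and 6.58 FPKM) and Cgn, a tight junction scaffold (11.6 and 10.0 FPKM), were higher in complexes too. Cldn4 averaged under 1 FPKM in the 8 C57BL/6 libraries and passed the filter only through the complexes, so its direction was fixed by the filter. Of 24 projection genes beyond the 10, 5 were higher and 0 lower in BDF1 complexes and 5 higher and 2 lower in DBA/2 complexes, beside 12.4% higher and 3.37% lower of all genes in BDF1 and 14.2% and 5.5% in DBA/2 complexes.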

How the data were processed

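The deposited values are FPKM in a single table for the 10 libraries. The submitters' processing notes name TopHat2 2.1.0, Cufflinks 2.1.0 and mouse build mm9, and the authors' annotation, strandedness and depth are unknown here, so overlapping and antisense genes cannot be separated and no counting interval is given. One repeated header line (1) was dropped. Of the genes, 12412 had a mean of 1 FPKM or more in the 8 C57BL/6 libraries. Their log2(FPKM + 1) values, a scale that understates changes of low genes, were fitted by group in one limma model (version 3.58.1, R 4.3.3, trend on, 5 residual degrees of freedom), which was also tested on simulated data. P-values were two-sided and adjusted by Benjamini-Hochberg over all genes, with a threshold of 0.05. Complexes were compared without a test over 12713 genes averaging 1 FPKM or more in all libraries. The 10 genes and the lists were chosen with earlier results of these data known. The rule for named genes took the 10 genes, up to 4 passing genes per list, the 3 closest patterns of Gja1, Gja4 and Cdh1, and defining markers. Alternatives changed the pseudocount, filter, scaling, covariates, weights, replicate block and libraries, and leaving out replicate 3 of both cumulus groups was added after seeing the data. RefSeq promoters are on GRCm38.p6, another build than mm9.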

Additional observations from a re-analysis of the deposited data

How the results depend on the processing

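For mural against cumulus cells, the number of the 10 genes that passed as higher (3) was 2 or 3 and as lower (2) was 2 under the alternatives that kept all libraries. It ranged from 0 to 3 and from 1 to 2 when 1 library was left out. The number of all genes that passed was 2599, 5425 with library weights, and 99 to 3253 when 1 library was left out. For age, 0 genes passed, 69 with library weights, and 0 to 245 when 1 library was left out, and 0 of the 10 genes passed under any alternative. Without replicate 3 of both cumulus groups, 5 of the 10 genes passed for mural cells and 0 for age, where 7 genes passed in all. Equal replicate numbers were not taken as pairs, since the labels give no pairing. Between same-numbered cumulus libraries of both ages, deviations from the group means correlated at 0.0060, 0.118 and 0.147. Between mural and same-numbered cumulus libraries they correlated at 0.032 and 0.214 for 2 months and at 0.055 and -0.052 for 10 months. The deviations of the 2 mural libraries mirror each other, so these values cannot decide on pairing. With the replicate number as a block, 3361 genes and the same 5 of the 10 passed for mural cells, and 0 for age.

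Some values that did not pass turned sign. For mural cells Cdh1 went from -0.10 to 0.52 with a pseudocount of 0.1 and with the replicate block, 0.28 with the oocyte covariate, 0.50 with library weights, 0.53 without replicate 3 of both cumulus groups, and -0.54 to 0.53 when 1 library was left out. Cdh2 went from -0.13 to 0.053 with quantile normalization and 0.084 with rescaling, and Gja4 from -1.13 to 0.29 with library weights. For age Gja4 went from 0.21 to -0.28 with the oocyte covariate. When 1 library was left out, the age value of Gja4 ranged from -0.88 to 1.23, that of Cdh1 from -0.23 to 1.00 and that of Daam1 from -0.050 to 0.63. The cause was not tested. Of the counts of the 10 genes past 2-fold in complexes, that of higher genes in BDF1 went from 5 to 4 with quantile normalization and with centring on the median, and the others did not change under the alternatives run. Groups of at most 3 libraries and unknown depth limit the precision of low values, such as those of Gjc1 and Cdh1.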

Other observations

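The ratio of Pvrl2 to Pvrl1 joins genes that passed in opposite directions for mural cells. Its separation of mural from 2-month cumulus cells therefore follows from that choice and adds no support. For age neither gene passed (adjusted p = 0.212 for Pvrl2 and 0.521 for Pvrl1, limma). In FPKM this ratio was 1.24 and 3.06 in mural cells, 0.173 to 0.547 in 10-month cumulus cells and 0.0397 to 0.103 in 2-month cumulus cells, with no overlap between these groups. How often other pairs of genes separate the groups was not computed. In BDF1 and DBA/2 complexes it was 0.101 and 0.0327. Pvr, another nectin family member, stood at 13.5, 14.4 and 15.9 FPKM in cumulus cells at 2 months and at 29.6, 16.4 and 43.1 FPKM at 10 months, and its age difference did not pass (adjusted p = 0.281, limma). Vcl, vinculin, which links junctions to actin, stood at 9.03, 11.7 and 21.1 FPKM at 2 months, 50.3, 18.0 and 63.1 FPKM at 10 months and 41.8 and 47.1 FPKM in mural cells, and passed in neither comparison (adjusted p = 0.263 for age and 0.0578 for mural cells, limma). Pvr and Vcl were chosen after their values were seen.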
